A study of Homo sapiens with 6 samples.

Results

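The 10 genes described here encode the enzymes of the hexosamine pathway and of O-GlcNAc cycling, and they were measured by RNA-seq in HCT116 cells with and without knockdown of NONO. They were taken by name, as the rows whose Ensembl identifier belongs to GFPT1, GFPT2, GNPNAT1, PGM3, UAP1, NAGK, GNPDA1, GNPDA2, OGT or OGA, out of 62492 genes listed in each library. HCT116 is an established human colorectal carcinoma line, and NONO is an RNA-binding protein of paraspeckles, which are nuclear bodies built on a long noncoding RNA. Cells were treated with control siRNA (siControl) or with siRNA against NONO (siNONO), each at 20 nM, and each group holds 3 libraries, numbered as Sets 1, 2 and 3. As a single duplex against NONO was used, effects of NONO loss and of the duplex cannot be told apart, and the time of harvest is not given in the sources used here.

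The hexosamine pathway diverts fructose 6-phosphate from glycolysis and joins it with glutamine, acetyl-CoA and UTP to make UDP-GlcNAc, the donor sugar for glycans and for O-GlcNAc. O-GlcNAc is a single sugar that OGT places on serine and threonine residues of nuclear and cytosolic proteins and that OGA removes again. Both enzymes act on very many proteins, and tumor cells of the colon, among others, are known for high use of this pathway. NONO itself is a protein that carries O-GlcNAc, which is the question of the study from which these libraries come.

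Estimated counts summed to between 21765393 and 32659002 per library. The targeted gene was low in every siNONO library, with 496, 495 and 516 CPM of NONO (counts scaled to library size and by edgeR's TMM factors) in the siControl libraries of Sets 1, 2 and 3 and 89.5, 95.5 and 100.4 CPM in the siNONO libraries. Of 7 colorectal epithelial markers, VIL1 was near 0 at 0.01 to 0.17 TPM (the abundance from RSEM, which takes transcript length into account) and the other 6 were expressed. Their sum was 2880 to 3014 TPM in siControl and 2720 to 3010 TPM in siNONO. Summed leukocyte markers reached at most 0.74 TPM. The 2 endothelial markers that matched a gene reached at most 0.34 TPM, while PECAM1, also listed, had no single match. The sum of 5 fibroblast markers was 16.3 to 19.2 TPM, nearly all of it COL1A1, with COL1A2 listed at 0.

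All 10 genes had enough reads to be tested, and 7 of them changed in siNONO. GFPT1, GNPNAT1, PGM3, NAGK and GNPDA1 were lower, and GFPT2 and OGT were higher. UAP1, GNPDA2 and OGA did not pass the test. The test was edgeR's quasi-likelihood F-test, blocked by Set, and a gene was called when its p, adjusted by Benjamini-Hochberg over 17000 genes, did not exceed 0.05. That background is wide, since 46.6% of all genes tested were called, 23.2% higher and 23.4% lower. The median log2 fold change of the 10 genes was -0.14, against -0.0048 over all genes, and the median size of change without its sign was 0.23 against 0.21. GNPDA1 had the largest change of the 10, and 3.07% of the tested genes had a larger one. In bulk RNA, less RNA per cell and fewer cells with the transcript cannot be told apart.

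**Figure D1:**
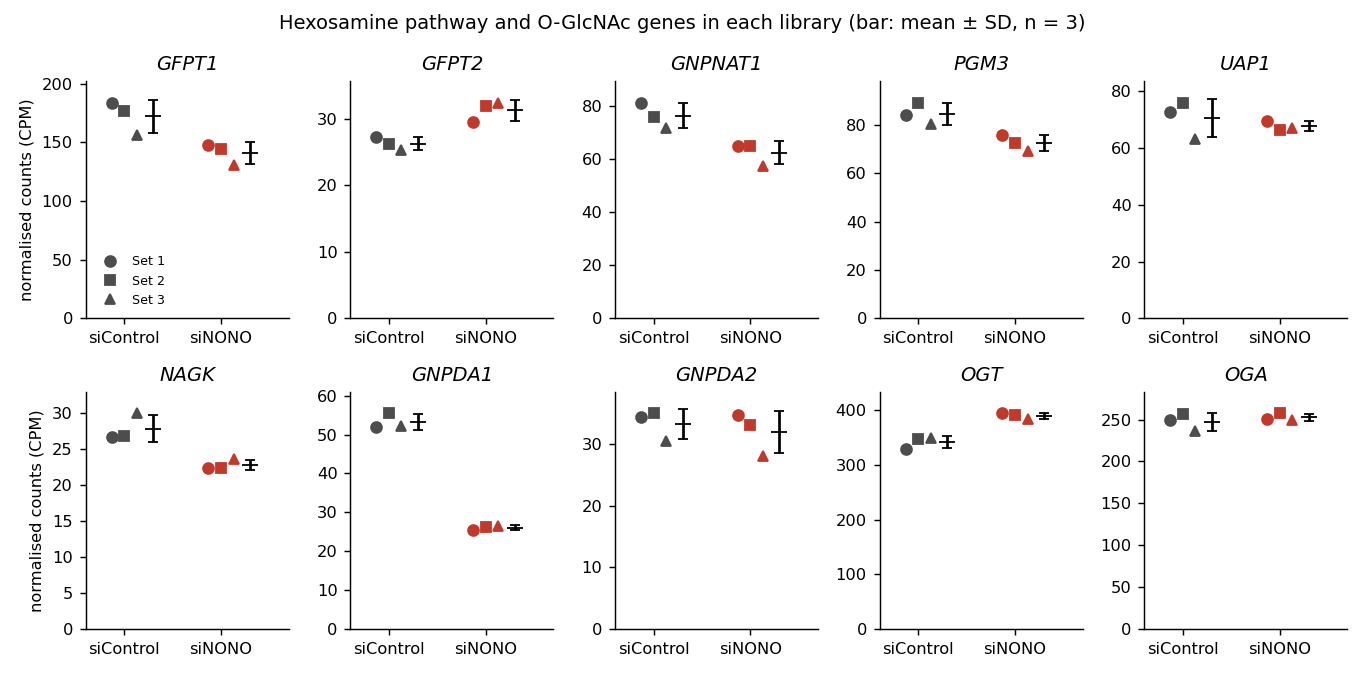
Normalised counts (CPM, vertical axis, from 0) of each of the 10 genes in the 3 siControl (grey) and 3 siNONO (red) libraries, with the Set given by the symbol and the mean ± SD (n = 3) as a bar. GNPDA1 lies near 26.1 CPM in siNONO against 53.2 CPM in siControl. The groups of UAP1, GNPDA2 and OGA overlap in CPM, whereas in TPM those of UAP1, GFPT2 and OGT overlap.

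In siControl cells the enzymes of O-GlcNAc cycling were the most abundant transcripts of the 10 per length. OGT had 107 ± 4.33 TPM and OGA 99.7 ± 0.702 TPM (SD, n = 3), which places them in count level above 93.2% and 91.8% of the genes tested. The synthesis enzymes followed with GFPT1 at 52.7 ± 2.94 TPM, UAP1 at 50.4 ± 5.63 TPM, PGM3 at 42.3 ± 2.92 TPM and GNPNAT1 at 36.3 ± 3.40 TPM. GNPDA1 stood among them at 44.8 ± 3.25 TPM, above NAGK at 26.6 ± 1.15 TPM, GNPDA2 at 23.0 ± 1.32 TPM and GFPT2 at 14.2 ± 0.787 TPM. The highest level was 7.54 times the lowest. Neighbours in this order overlapped between libraries for GFPT1 and UAP1, for UAP1 and GNPDA1 and for GNPDA1 and PGM3, and the other 6 pairs of neighbours did not.

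In siNONO cells OGT, at 114 ± 2.95 TPM, and OGA, at 91.4 ± 1.35 TPM, stayed at the top and GFPT2 at the bottom with 15.6 ± 0.584 TPM (SD, n = 3). UAP1 at 46.1 ± 2.37 TPM stood above GFPT1 at 42.2 ± 1.60 TPM without overlap. GNPDA1 went from the fifth place to the seventh, at 23.2 ± 1.67 TPM, where its libraries overlapped with those of NAGK at 22.5 ± 1.18 TPM. NAGK in turn overlapped with GNPDA2 at 19.5 ± 1.64 TPM.

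The entry into the pathway was measured in GFPT1 and GFPT2, both of which encode glutamine-fructose-6-phosphate transaminase, the rate-limiting enzyme that makes glucosamine 6-phosphate. They moved in opposite directions. GFPT1, on the minus strand of chromosome 2 of GRCh37 from 69546912 to 69614382, had 184, 177 and 156 CPM in siControl and 148, 144 and 131 CPM in siNONO in Sets 1, 2 and 3. Every siNONO library was below every siControl library. GFPT1 reached 81.9% of its control level, a log2 fold change of -0.29 (SE 0.0313, edgeR adjusted p = 8.90e-06), and it was -0.31, -0.29 and -0.26 in Sets 1, 2 and 3.

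GFPT2, on the minus strand of chromosome 5 from 179727698 to 179780336, is the form with fewer reads in these cells. It had 27.2, 26.2 and 25.3 CPM in siControl and 29.4, 31.9 and 32.4 CPM in siNONO, with all siNONO libraries above the siControl libraries. This gave GFPT2 a log2 fold change of 0.25 (SE 0.0585, edgeR adjusted p = 0.00391), and Set 1 showed a smaller difference, 0.11, than Sets 2 and 3, at 0.28 and 0.36. The call of GFPT2 depended on the scale, since on log2(TPM + 1) the difference was 0.12 (adjusted p = 0.269 from limma) and the groups overlapped. With GFPT1 and GFPT2 summed per library, the level was 66.9 ± 3.59 TPM in siControl and 57.8 ± 1.16 TPM in siNONO (SD, n = 3), or 86.5% of control. GFPT2 made up 21.6%, 20.6% and 21.7% of this sum in the siControl libraries and 25.5%, 27.0% and 28.4% in the siNONO libraries.

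GNPNAT1 and PGM3, the genes for the middle steps, were called lower from counts, but only GNPNAT1 was called lower on every scale. GNPNAT1 encodes the enzyme that acetylates glucosamine 6-phosphate with acetyl-CoA, and it lies on the minus strand of chromosome 14 from 53241911 to 53258386. It had 81.1, 75.8 and 71.6 CPM in siControl and 64.7, 64.8 and 57.4 CPM in siNONO, without overlap. GNPNAT1 thus stood at 81.7% of control, with a log2 fold change of -0.29 (SE 0.0391, edgeR adjusted p = 5.51e-05) and -0.33, -0.23 and -0.32 in Sets 1, 2 and 3. Among all 10 genes, GFPT1, GNPNAT1 and GNPDA1 were called lower under each of the 16 alternatives tried. The share of all genes called lower under every alternative is not given here. DESeq2 called the fewest lower, 2610 of 17000 genes.

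PGM3, on the minus strand of chromosome 6 from 83857043 to 83903655, encodes the mutase that moves the phosphate of N-acetylglucosamine phosphate. It had 84.0, 89.3 and 80.4 CPM in siControl and 75.9, 72.7 and 69.4 CPM in siNONO, and every siNONO library was below the siControl libraries. For PGM3 the log2 fold change was -0.22 (SE 0.0396, edgeR adjusted p = 0.000598), with -0.15, -0.30 and -0.21 in Sets 1, 2 and 3. The call was lost in TPM, at -0.23 as log2(TPM + 1) (limma adjusted p = 0.0664), and with the effective length as an offset, at -0.14 (adjusted p = 0.165 from edgeR). PGM3 shares 1546 exonic bases with DOP1A on the opposite strand, and DOP1A had a log2 fold change of -0.11 (adjusted p = 0.121 from edgeR). The estimated counts of PGM3 and GNPNAT1 were not all whole numbers, so part of their reads was divided between genes. This is common, as 27.9% to 28.3% of the genes with counts in a library had such values. DOP1A had 479 to 757 counts per library. The gene on the opposite strand that shares 1426 exonic bases with GNPNAT1 had at most 5.19. The strand setting of the counting is not given in the sources used here.

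UAP1, on the plus strand of chromosome 1 from 162531512 to 162571030, encodes the pyrophosphorylase that joins the sugar phosphate with UTP to give UDP-GlcNAc. It had 72.7, 76.1 and 63.1 CPM in siControl and 69.7, 66.4 and 67.0 CPM in siNONO, so the siNONO values lay within the control range. UAP1 had a log2 fold change of -0.060 with a 95% interval from -0.17 to 0.047 (adjusted p = 0.349 from edgeR), and the Sets differed in sign at -0.060, -0.20 and 0.087. Without the siControl library of Set 3 it was -0.12 (adjusted p = 0.0449), and without the siNONO library of Set 3 it was -0.13 (adjusted p = 0.0306), both past the threshold. Without the siControl or the siNONO library of Set 2 it was 0.022 or 0.012.

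**Figure D2:**
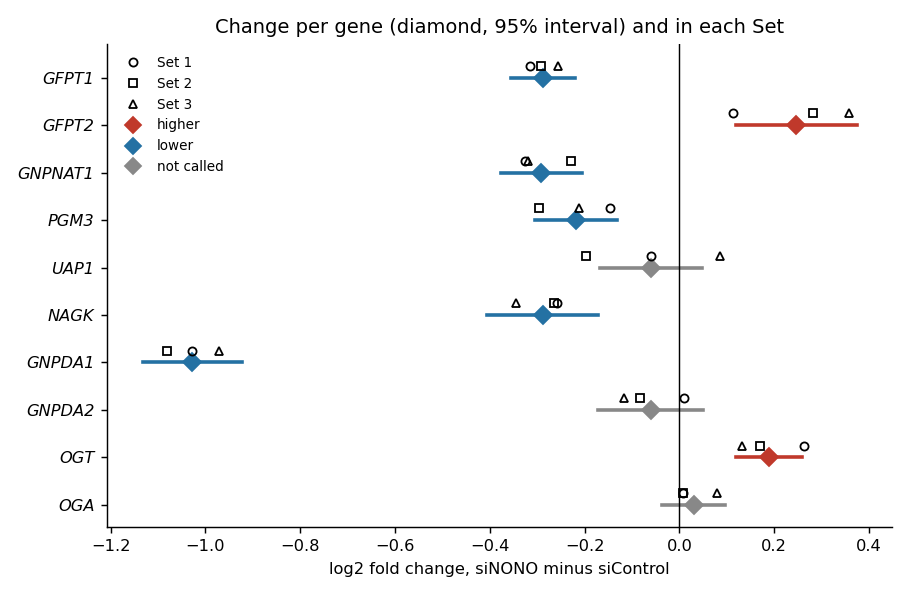
Log2 fold change of siNONO against siControl (horizontal axis) for each gene, with the edgeR estimate as a diamond, its 95% interval as a line and the 3 Sets as open symbols. Blue marks genes called lower, red genes called higher and grey genes not called, and GNPDA1 at -1.03 stands apart from the other 9 genes, which lie between -0.29 and 0.25.

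The promoters of GFPT1 and GNPNAT1, the synthesis genes called lower under every alternative, are shown together. The sequences are from RefSeq on GRCh38.p14, a later build than that of the gene positions above, and cover 250 bases before to 50 bases after the start of the gene, 300 bases in all, 5′ to 3′ on the strand of the gene. Capitals mark GGGCGG, the GC box bound by Sp1-type factors, on either strand. GFPT1 is at chr2:69387178-69387477 and GNPNAT1 at chr14:52791558-52791857, both on the minus strand.
GFPT1: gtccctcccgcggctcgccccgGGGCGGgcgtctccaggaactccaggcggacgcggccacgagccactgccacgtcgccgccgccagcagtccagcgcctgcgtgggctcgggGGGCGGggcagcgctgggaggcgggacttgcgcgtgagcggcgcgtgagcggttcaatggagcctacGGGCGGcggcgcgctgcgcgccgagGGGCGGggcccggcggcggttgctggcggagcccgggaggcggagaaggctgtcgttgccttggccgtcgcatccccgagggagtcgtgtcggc
GNPNAT1: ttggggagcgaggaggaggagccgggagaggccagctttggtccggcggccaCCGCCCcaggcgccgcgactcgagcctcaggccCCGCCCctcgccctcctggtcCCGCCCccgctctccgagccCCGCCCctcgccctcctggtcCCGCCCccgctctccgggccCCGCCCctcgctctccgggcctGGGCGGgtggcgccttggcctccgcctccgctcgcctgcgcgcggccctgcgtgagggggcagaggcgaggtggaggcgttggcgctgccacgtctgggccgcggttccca
The GFPT1 window held 4 GC boxes and that of GNPNAT1 7, with 78.0% and 79.3% of G and C against a median of 58.7% over all promoters. NAGK, which had the same log2 fold change of -0.29, has 2 windows with 58.7% and 68.7% of G and C and with 0 and 2 GC boxes. GFPT2, which was higher, has 77.0% of G and C and 5 GC boxes. GGGCGG was in 45.0% of 35116 RefSeq promoters of this length and in 12 of the 14 promoters listed for the 10 genes. CCAAT was in 5 of the 14 (34.6% of all), CCGGAAG in 2 (10.3%), CACGTG in 1 (7.26%), and TGACGTCA and TATAAA in 0 (1.85% and 11.5%), each searched on both strands. These matches describe the letters in the windows only, and several of the 14 windows belong to 1 gene or overlap each other.

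Salvage and reversal of the pathway were measured in NAGK, GNPDA1 and GNPDA2, and the lowest fold change of the 10 genes was found here. NAGK, on the plus strand of chromosome 2 from 71291474 to 71306938, encodes the kinase that returns free N-acetylglucosamine to the pathway. It had 26.7, 26.8 and 29.9 CPM in siControl and 22.3, 22.3 and 23.6 CPM in siNONO, without overlap. NAGK was at 81.9% of control, a log2 fold change of -0.29 (SE 0.0540, edgeR adjusted p = 0.000747), and -0.26, -0.26 and -0.35 in Sets 1, 2 and 3. With the effective length as an offset it was -0.15 (adjusted p = 0.142 from edgeR).

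GNPDA1 and GNPDA2 encode glucosamine-6-phosphate deaminases, which turn glucosamine 6-phosphate back into fructose 6-phosphate and so act against the GFPT step. GNPDA1, on the minus strand of chromosome 5 from 141371314 to 141392606, had 52.0, 55.5 and 52.1 CPM in siControl. In siNONO it had 25.5, 26.2 and 26.6 CPM. The spread within each group was thus far smaller than the distance between the groups. With siNONO, 49.1% of the control level of GNPDA1 remained, a log2 fold change of -1.03 (SE 0.0481, edgeR adjusted p = 5.51e-09), and the Sets gave -1.03, -1.08 and -0.97.

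GNPDA2, on the minus strand of chromosome 4 from 44684217 to 44728605, had 34.4, 35.0 and 30.5 CPM in siControl and 34.6, 33.0 and 28.1 CPM in siNONO. These values overlapped, and in both groups Set 3 was the lowest. GNPDA2 had a log2 fold change of -0.061 with a 95% interval from -0.17 to 0.050 (adjusted p = 0.362 from edgeR), with 0.0093, -0.084 and -0.12 in Sets 1, 2 and 3. On log2(TPM + 1) GNPDA2 was lower, at -0.23, and again not called (limma adjusted p = 0.0554), where the median of all genes was -0.071. With the effective length as an offset GNPDA2 was at -0.15 (adjusted p = 0.163 from edgeR). GNPDA2 shares 78 exonic bases with GUF1 on the opposite strand, whose log2 fold change was 0.046 (adjusted p = 0.389 from edgeR).

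Within the deaminase pair, the share of GNPDA2 was higher in siNONO. Summed per library, GNPDA1 and GNPDA2 had 67.8 ± 4.32 TPM in siControl and 42.7 ± 3.23 TPM in siNONO (SD, n = 3), or 63.0% of control. GNPDA2 made up 32.7%, 34.3% and 34.9% of the sum in siControl and 45.7%, 46.4% and 44.5% in siNONO. From estimated counts in place of TPM, its mean share was 38.5% in siControl and 54.9% in siNONO. The log2 ratio of GNPDA1 to GNPDA2 was lower by 0.70 in siNONO on average, with differences of -0.79, -0.73 and -0.58 in Sets 1, 2 and 3. The corresponding differences for GFPT1 to GFPT2 were -0.32, -0.52 and -0.52. From estimated counts the mean differences were -0.96 for GNPDA1 to GNPDA2 and -0.54 for GFPT1 to GFPT2. An exact permutation test over libraries, two-sided, gave p = 0.1 for each ratio, which is the smallest p this test allows with 3 against 3. With the libraries exchanged only within their Set, the exact p was 0.25 for each ratio, again the smallest that this test allows with 3 pairs. These 2 ratios were chosen after their values were seen.

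**Figure D3:**
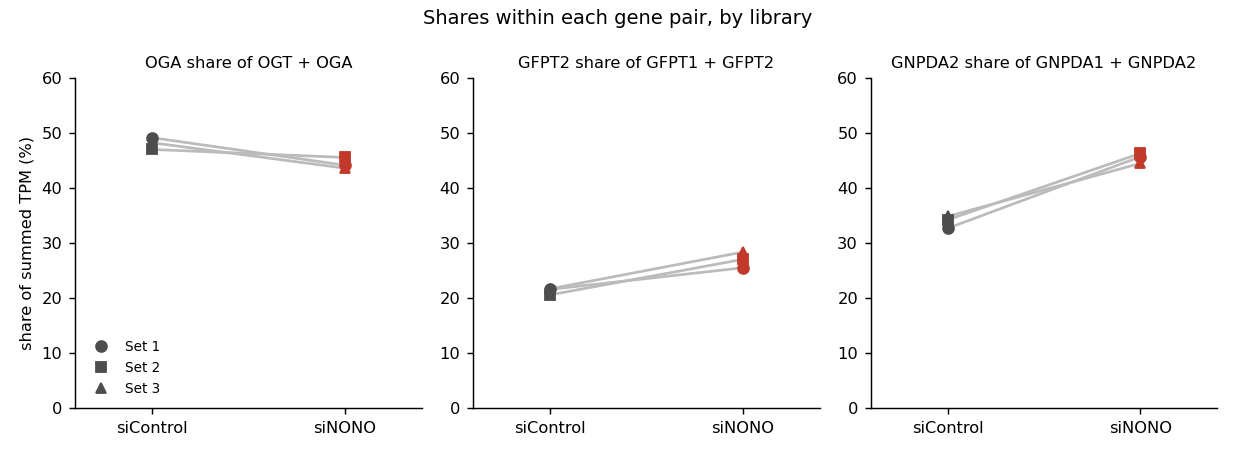
Share of the second gene in the summed TPM of a pair (vertical axis, %, from 0) in each library, with lines joining the libraries of a Set, for OGA in OGT and OGA, GFPT2 in GFPT1 and GFPT2 and GNPDA2 in GNPDA1 and GNPDA2. The GNPDA2 share goes from 33.9% to 45.5% on average, the GFPT2 share from 21.3% to 27.0% and the OGA share from 48.2% to 44.5%, with the same direction in all 3 Sets of each pair.

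The promoters of the deaminase pair are shown because GNPDA1 fell and GNPDA2 did not pass the test. Both are RefSeq windows of GRCh38.p14 on the minus strand, GNPDA1 at chr5:142012978-142013277 and GNPDA2 at chr4:44726507-44726806, with GGGCGG and CACGTG (the E-box) in capitals.
GNPDA1: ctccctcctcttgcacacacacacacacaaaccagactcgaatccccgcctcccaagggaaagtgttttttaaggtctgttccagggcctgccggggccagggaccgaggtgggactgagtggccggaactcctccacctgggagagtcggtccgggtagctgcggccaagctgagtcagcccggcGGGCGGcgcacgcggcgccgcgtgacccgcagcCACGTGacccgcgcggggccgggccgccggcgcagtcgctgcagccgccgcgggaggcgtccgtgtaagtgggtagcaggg
GNPDA2: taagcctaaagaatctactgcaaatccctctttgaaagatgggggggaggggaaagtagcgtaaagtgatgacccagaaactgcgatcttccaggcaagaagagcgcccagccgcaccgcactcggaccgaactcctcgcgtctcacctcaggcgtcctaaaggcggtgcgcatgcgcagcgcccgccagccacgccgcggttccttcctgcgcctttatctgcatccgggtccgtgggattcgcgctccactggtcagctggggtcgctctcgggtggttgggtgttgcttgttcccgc
The GNPDA1 window held 1 GC box and 1 E-box, the single CACGTG among the 14 promoters, and it had 70.0% of G and C. The GNPDA2 window held none of the 6 motifs searched and had 61.0% of G and C. No factor was measured at either promoter in these data.

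OGT and OGA, the writer and the eraser of O-GlcNAc, were compared next. OGT lies on the plus strand of chromosome X from 70752937 to 70795742. It had 329, 348 and 350 CPM in siControl and 395, 391 and 384 CPM in siNONO, and all siNONO libraries were above the siControl libraries. OGT was 14.0% higher, a log2 fold change of 0.19 (SE 0.0321, edgeR adjusted p = 0.000368), with 0.26, 0.17 and 0.13 in Sets 1, 2 and 3. On log2(TPM + 1) the gain was smaller and not called, at 0.088 (adjusted p = 0.188 from limma), where the median of all genes was -0.071. OGT had 103, 111 and 108 TPM in siControl and 115, 111 and 116 TPM in siNONO. With the effective length as an offset on counts, OGT was called higher, at 0.18 (adjusted p = 0.0145 from edgeR).

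OGA lies on the minus strand of chromosome 10 from 103544200 to 103578222. It had 249.6, 256 and 236 CPM in siControl and 251, 257 and 249 CPM in siNONO, and the groups overlapped. OGA had a log2 fold change of 0.030 with a 95% interval from -0.036 to 0.097 (adjusted p = 0.449 from edgeR), and 0.0069, 0.0068 and 0.079 in Sets 1, 2 and 3. As log2(TPM + 1) the sign turned and OGA was called lower, at -0.12 (limma adjusted p = 0.0449, with 0.0449 to 0.837 over all alternatives), with 99.6, 99.1 and 100.5 TPM in siControl and 91.1, 92.8 and 90.2 TPM in siNONO. The median of all genes was itself at -0.071 on that scale.

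The log2 ratio of OGT to OGA does not depend on the scaling between libraries. Per length it was 0.045, 0.17 and 0.099 in siControl and 0.34, 0.25 and 0.37 in siNONO, so that all siNONO libraries were above the control libraries. The mean difference was 0.22 (0.29, 0.085 and 0.27 in Sets 1, 2 and 3), and the exact permutation test over libraries, two-sided, gave p = 0.1, the smallest this test allows, and 0.1 after Benjamini-Hochberg adjustment over the 3 ratios compared. Exchanged within Sets only, the exact permutation p was 0.25, the smallest for 3 pairs. From estimated counts in place of TPM the difference was 0.16, again in the same direction in every Set. The OGA share of the summed TPM was 48.2 ± 1.08% in siControl and 44.5 ± 1.01% in siNONO (SD, n = 3).

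Each library also lists a mean transcript length per gene, weighted by the estimated abundance of its transcripts, so that it moves only when the mix of transcripts moves. Among the 17000 genes tested with limma, 0% passed the threshold (0 genes, with 1426 at an unadjusted p under 0.05 and 2 called without the replicate block). None of the 10 genes was called, and 3 of them, GFPT1, NAGK and GNPDA1, were at an unadjusted p under 0.05. GFPT1 had 4975, 4749 and 4698 bases in siControl and 4762, 4591 and 4496 bases in siNONO, shorter in every Set, with a log2 difference of -0.059 (adjusted p = 0.354 from limma). GNPDA1 had 1801, 1835 and 2002 bases in siControl and 1565, 1739 and 1780 bases in siNONO, a log2 difference of -0.15 (adjusted p = 0.537 from limma). NAGK had 1657, 1639 and 1722 bases against 1489, 1572 and 1560 bases, a log2 difference of -0.12 (adjusted p = 0.535 from limma). With a length offset the falls of these genes were smaller, at -0.23 for GFPT1, -0.86 for GNPDA1 and -0.15 for NAGK. This follows from the offset itself, which uses the deposited effective lengths, and is not a separate observation.

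For OGT the mean transcript length was 4704 ± 167 bases in siControl and 4727 ± 125 bases in siNONO (SD, n = 3), with a log2 difference of 0.0074. The annotation lists 11 transcripts of OGT, of which 5 are retained-intron forms, and lengths run from 400 to 7243 bases. OGA went from 3695 ± 140 to 3858 ± 50.8 bases, a log2 difference of 0.063 (adjusted p = 0.789 from limma). GNPDA2 differed by 0.082 on the log2 scale and GNPNAT1 by 0.0015, neither of them called.

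**Figure D4:**
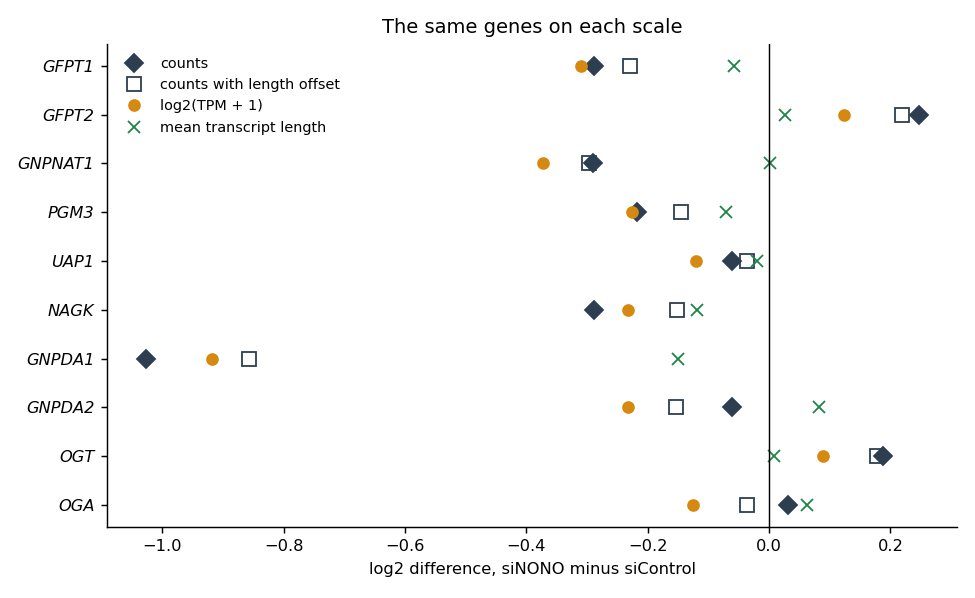
Log2 difference of siNONO against siControl (horizontal axis) for each gene from counts, from counts with the effective length as an offset, from log2(TPM + 1) and for the mean transcript length. OGA lies at 0.030 from counts, at -0.037 with the offset and at -0.12 from TPM, while GNPDA1 lies below -0.8 on all 3 expression scales.

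The genes around the pathway were read from 4 lists, again over all genes tested. Among 13 genes of amino sugar metabolism outside the 10, 11 were tested, and 5 were higher, 1 lower and 5 neither, so that 54.5% were called against 46.6% of all genes tested. NANS, which makes sialic acid 9-phosphate, had 32.0 ± 2.22 CPM in siControl and 38.1 ± 2.07 CPM in siNONO (SD, n = 3), a log2 fold change of 0.25. GNE, the entry enzyme from UDP-GlcNAc to sialic acid, had 44.8 ± 3.25 CPM in siControl and 30.5 ± 2.74 CPM in siNONO, a log2 fold change of -0.55. RENBP and NPL had too few reads to be tested.

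Of 20 genes for transport and use of UDP-GlcNAc, 19 were tested, with 4 higher, 6 lower and 9 neither, or 52.6% called against the same 46.6%. HAS3, a hyaluronan synthase, was higher by 0.65, MGAT4B, which adds a branch to N-glycans, by 0.50 and POMGNT2, which acts on O-mannose glycans, by 0.40 on the log2 scale. The nucleotide sugar transporters SLC35B4 and SLC35D2 had log2 fold changes of -0.74 and -0.55, and MGAT2, an earlier enzyme of N-glycan branching, of -0.37. MGAT3 was not tested, for too few reads. The median of this list was -0.014.

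Of 15 genes that supply the substrates, 4 were higher, 4 lower and 7 neither, or 53.3% called, again near the 46.6% of all genes. ACLY, which makes cytosolic acetyl-CoA from citrate, had 457 ± 3.07 CPM in siControl and 278 ± 14.4 CPM in siNONO (SD, n = 3), a log2 fold change of -0.72. ACSS2, which makes acetyl-CoA from acetate, was higher by 0.41. The glucose transporter SLC2A1 had a log2 fold change of -0.37 and SLC2A3 of 0.32, GPI, which makes fructose 6-phosphate, of -0.39, and the glutamine transporter SLC1A5 of 0.24. On log2(TPM + 1), the number called higher was 1 in this list and 2 in the list of amino sugar metabolism. On that scale 1643 of all 17000 genes tested were called higher, fewer than from counts.

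Of 10 genes for proteins known to bind OGT or OGA or to act with them, 8 were lower (23.4% of all genes tested were), 1 was higher and 1 was neither, with a median log2 fold change of -0.35. TET1, a DNA demethylase, had 16.9 ± 0.850 CPM in siControl and 10.3 ± 1.57 CPM in siNONO (SD, n = 3), a log2 fold change of -0.71. PPP1R12A, a myosin phosphatase subunit, was at -0.59 and SIN3A, a corepressor scaffold, at -0.40. TRAK2, an adaptor for the transport of mitochondria, was higher by 0.38, and TRAK1 was at -0.034 and not called. The called genes named from these lists had edgeR adjusted p-values up to 0.00711.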

How the data were processed

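RNA-seq libraries of HCT116 cells, 3 siControl and 3 siNONO, were grouped by their labels, which also give the Set. The libraries were made with a stranded poly(A) kit. Reads were trimmed by the authors with sickle, aligned with STAR against the GENCODE transcriptome of GRCh37 and counted with RSEM (1.3.1 in the submitters' processing notes). Per gene, 62492 in all, each library's file gives estimated counts, TPM, FPKM, a length and an effective length. The estimated counts that the authors deposited carry no normalization, whereas RSEM had scaled the deposited TPM and FPKM for length and library size. FPKM was not tested. Imaging, qPCR, protein and proliferation experiments were not analysed here.

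Identifiers were paired with symbols from a gene table for 62211 of the genes. Counts were rounded and tested with edgeR (4.0.16, in the edgeR 3 form of the quasi-likelihood test), with TMM, filterByExpr and a block for the Set, and p-values were adjusted by Benjamini-Hochberg over 17000 genes. Standard errors (SE) are the size of the log2 fold change over the square root of F. Log2 transcript length was tested with limma (3.58.1), and TPM with limma-trend on log2(TPM + 1), or + 0.1, where the trend option was set after the data were seen. Alternatives were other scalings, filters and forms of the test, no block, DESeq2 (1.42.0), an offset on effective length and each library left out. Gene positions and overlaps came from GENCODE version 44 mapped to GRCh37, later than the authors' annotation.

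The 10 genes and all lists were chosen with earlier results of these data known. The genes named were the 10, NONO, up to 3 called genes per direction and list by size of change, and the 3 tested genes whose log2 CPM correlated best with OGT and with OGA. TRAK1, DOP1A, GUF1 and the genes not tested were named outside this rule. The values of 2 genes that the rule selects are not reported here.

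Depth ran from 21765393 to 32659002 counts per library, and the biological coefficient of variation was 3.51%. Every pair of libraries within a group differed beyond sampling noise. In a test on simulated counts for siNONO against siControl over 16800 genes, 72.7% of genes changed by 1.5-fold and 91.0% of those changed by 2-fold were recovered, with 11 false calls. The simulation gave all genes the same dispersion, put in no difference between Sets and changed few genes. These settings differ from the data, so its rates do not carry over to them. Numbers of the Sets are those of the labels, and the pairing was taken from them. Deviations from the group means correlated at 0.227, 0.181 and 0.380 in Sets 1, 2 and 3, over 12114 genes. Libraries of different Sets ran from -0.270 to 0.129, with 0.108 and 0.129 between Sets 1 and 2. The correlations thus set Set 3 apart but separate Sets 1 and 2 only weakly. The labels' design text calls the libraries biological replicates.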

Additional observations from a re-analysis of the deposited data

How the results depend on the processing

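Of the 10 genes, GFPT1, GNPNAT1 and GNPDA1 were called lower under all 16 alternatives, a share that is not given here for all genes. The number of genes called was 7924, and 5206 with DESeq2, 5257 on log2(TPM + 1), 5250 on log2(TPM + 0.1) and 6497 to 7653 with 1 library left out. Of the calls, 49.7% were higher from counts and 31.3% on log2(TPM + 1). On both TPM scales, 0 of the 10 genes, 2 genes of amino sugar metabolism and 1 of substrate supply were called higher. Of all 17000 genes tested, 1643 were called higher on log2(TPM + 1) and 1638 on log2(TPM + 0.1). With the length offset, 1 of the 10 genes was called higher (OGT) and 3 lower, against 2703 and 2704 of all 17000 genes tested. OGA was reversed on log2(TPM + 1) and log2(TPM + 0.1), at -0.12 and -0.13, and called lower on both (limma adjusted p = 0.0449 and 0.0467), and with the offset it was at -0.037 and not called. GFPT2 had 0.12, 0.13 and 0.22 on these 3 scales and was not called (adjusted p = 0.269, 0.260 and 0.0647). With 1 library left out, UAP1 ran from -0.13 to 0.022, reversed without either library of Set 2. The log2 differences in length ran from -0.040 to 0.054 for GNPNAT1, from -0.031 to 0.049 for OGT and from -0.040 to 0.00037 for UAP1. Without the replicate block, 6164 genes were called in place of 7924 and no call among the 10 genes changed (OGT at 0.19, adjusted p = 0.00624), while 2 genes passed for transcript length in place of 0. The causes of these differences were not tested. The exact permutation tests of the ratios cannot go below p = 0.1 over libraries, or below 0.25 within Sets, a test that was added after the data were seen.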

Other observations

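The genes whose log2 CPM followed OGT most closely over the 6 libraries were SEPTIN3, ARL14EPL and SIRT4, with Pearson's r of 0.997, 0.996 and 0.995. The log2 fold changes of these 3 genes were 0.26, 0.59 and 0.71. For OGA they were RPL26P30, M6PR and RFESD, with r of 0.989, 0.984 and 0.979, and none of these 3 was called. RPL26P30 is a pseudogene of a ribosomal protein gene, so its reads are uncertain. All of these were picked as the highest of many correlations over the same 6 libraries and are a description only.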
